A study of Saccharomyces cerevisiae with 21 samples.

Results

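The genes described here are 30 genes of sulfur assimilation and methionine synthesis in Saccharomyces cerevisiae strain S288C, chosen by name and matched by gene symbol to the array probes. Of these, 29 had a measured probe, 1 probe each, among 5408 genes with a value in all. SUL2 had no probe named for it in either table and is not analysed here. MET17, which makes homocysteine, MET6, which makes methionine, and CYS3, which makes cysteine, rose after thermal neutrons (6.54-, 2.41- and 1.68-fold) and fell after gamma rays (1.83-, 2.13- and 1.63-fold). MMP1, a permease for S-methylmethionine, rose 3.37-fold after gamma rays and was 1.37-fold lower after thermal neutrons, a call lost without any one of the thermal neutron arrays.

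Yeast takes up sulfate through the permeases Sul1 and Sul2, activates it with ATP, and reduces it to sulfite and then to sulfide. Met17 joins the sulfide to O-acetylhomoserine to give homocysteine, from which the cell makes methionine, cysteine and S-adenosylmethionine, its main methyl donor. The transcription factor Met4, held to DNA by Cbf1, Met28, Met31 and Met32, activates most of these genes, and the ubiquitin ligase subunit Met30 restrains Met4 when methionine or S-adenosylmethionine is plentiful.

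Messenger RNA of irradiated cells (Cy5) was hybridised with that of unirradiated control cells (Cy3) on 12 arrays, 3 for each of 4 radiations, and the design text says that all biological samples were independent. Every value below is a log2 ratio of irradiated over control or a difference of such ratios, so 0 means no difference and 1 a doubled level. In all groups, cells held in cold saline were afterwards returned to 50 ml of rich medium (YPD) for 40 min at 25 C before RNA was taken. Gamma rays from a Cs-137 source gave 17 Gy, with cells in 2 ml of saline in cuvettes for about 20.5 h. The stated rate of 1.4 Gy/min would not need that time, and the labels do not settle which is meant. Carbon-12 ions, labelled heavy ion radiation, gave 25 Gy at 290 MeV/u and 3 Gy/min in 10 min, with cells in 5 ml in tissue culture flasks. Thermal neutrons gave 20.8 Gy in 20 h in 2 ml at a global rate of 17 mGy/min, of which only 1.0 to 2.0 mGy/min were thermal neutrons, so that name stands for a mixed field. Fast neutrons contributed 20.3 of 21.4 Gy, delivered in 336 min at 0.064 Gy/min by one label and in 19 h by another. Controls were held for the same time without irradiation. The growth text of both neutron groups speaks of heavy ions, whereas their titles and treatment texts name neutrons, which is how they are called here. For both neutron groups the irradiated cells were in cuvettes and their controls in tissue culture flasks, so the effects of vessel and radiation on those ratios cannot be told apart. Dose, exposure time, volume and vessel also differ between the radiations, and a difference between radiations is therefore a difference between whole treatments. Gamma arrays had 1 scan each and the others 2, at high and low laser power. Scanning thus differs as well in every difference from gamma rays.

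No dyes were swapped, so any preference of a gene for one dye is part of its ratio against 0 and cancels only in a difference between radiations on the same array type. Arrays of 1 type served for 3 of the radiations, which were compared with each other. Fast neutrons were measured on another array type and stand beside the rest untested. HUG1, RNR2 and RNR4, which DNA damage induces, were positive on all 12 arrays, the sign that induced genes take under the labelled dye order. Over genes, which are not independent of each other, r between replicates ranged from 0.431 for a fast neutron pair to 0.859 for a thermal neutron pair. The high-power scan of fast neutron replicate 2 stood apart with a median of 0.134, against -0.0397 to 0.0049 for the other 20 scans. In RNA from a whole culture, a change in all cells and a larger change in some of them cannot be told apart.

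A gene was called when its limma p, adjusted by the Benjamini-Hochberg method over all genes tested, was under 0.05. After gamma rays 15 of 28 tested sulfur genes were called (53.6%), against 40% of all genes tested. Of these, 6 were higher and 9 lower, where 17.6% and 22.4% of all genes were called. After thermal neutrons 16 of 29 were called (55.2%, against 41.1% of all genes), 10 higher and 6 lower, where 19.9% and 21.2% of all genes were. Without thermal replicate 1 or 2 the thermal neutron count was 10, and without thermal replicate 3 it was 11. Calls lay in both directions after both radiations, and no test was made of the share called against that of all genes. The median of the sulfur genes was -0.08 after gamma rays and 0.04 after thermal neutrons, beside -0.06 and -0.04 for all genes.

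After carbon ions 8 of 27 tested sulfur genes were called (29.6%, against 21.6% of all genes), 2 higher and 6 lower, where 9.7% and 11.9% of all genes were. That count rested on single arrays, with 2 called without carbon replicate 1. It was 0 by limma without carbon replicate 2, where 8 sulfur genes had an unadjusted p under 0.05. Calls over all genes after carbon ions also fell without carbon replicate 1 or 2, by counts given further below. After fast neutrons 1 of 25 was called (4%, against 11% of all genes), namely MET17, which was higher, where 5.06% of all genes were higher and 5.92% lower. The fast neutron fit used only its own 3 arrays, and its count was 8 without replicate 2, where the 2 arrays left rely on the spread pooled over genes. It was 0 by limma without replicate 1 or 3, where 3 and 8 sulfur genes had an unadjusted p under 0.05. Scaling the arrays to the same spread gave 3 calls after fast neutrons, 1 higher and 2 lower. Over all genes, calls after fast neutrons likewise rose without replicate 2 and with arrays scaled, and fell without replicate 1 or 3. Those counts are given further below.

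**Figure D1:**
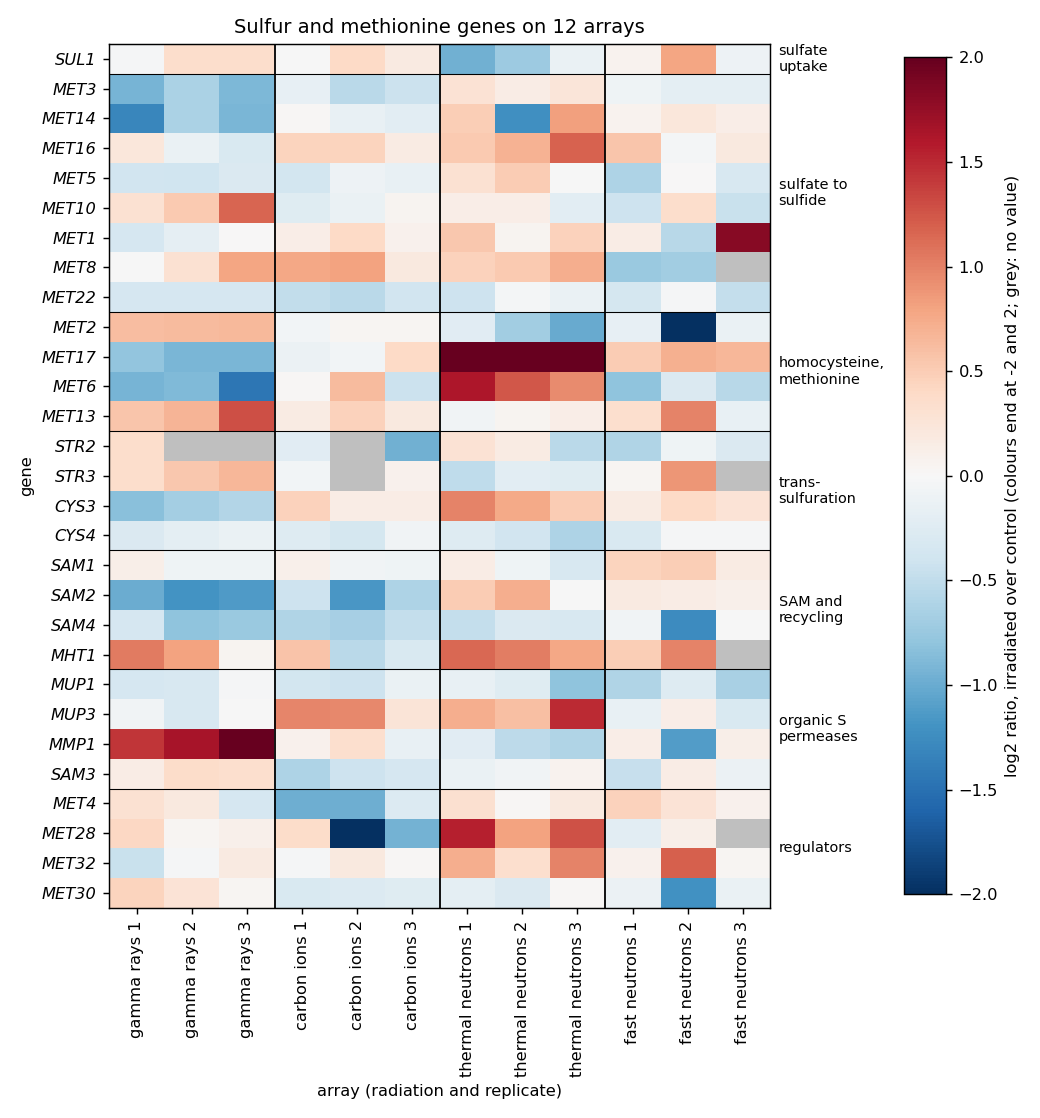
Log2 ratio of irradiated over control for the 29 measured sulfur genes (rows, in pathway order) on the 12 arrays (columns, by radiation and replicate). Red is higher and blue lower after irradiation, colours end at -2 and 2, and grey marks no value. MET17 was above 2 on all 3 thermal neutron arrays, and MMP1 was at 1.43 or more on all 3 gamma arrays.

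Between radiations, for thermal neutrons minus gamma rays, 16 of 28 tested sulfur genes were called (57.1%, against 38.2% of all genes), 10 higher and 6 lower, where 20.4% and 17.8% of all genes were. The median difference over the sulfur genes was 0.24, beside 0.03 for all genes. For carbon ions minus gamma rays, 10 of 27 were called (37%, against 20.8%), 4 higher and 6 lower, where 11.4% and 9.35% of all genes were. For thermal neutrons minus carbon ions, 8 of 27 were called (29.6%, against 10.2%), 7 higher and 1 lower, where 5.8% and 4.37% of all genes were. The last count fell to 1 without thermal replicate 2 and to 2 without thermal replicate 1. It lay at 4 or 5 without thermal replicate 3 or any one carbon array. Over all genes, calls in that comparison also fell without thermal replicate 1 or 2 and without carbon replicate 1 or 2. The carbon minus gamma count was 5 without gamma replicate 2 or carbon replicate 2, and 6 without gamma replicate 3.

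**Figure D2:**
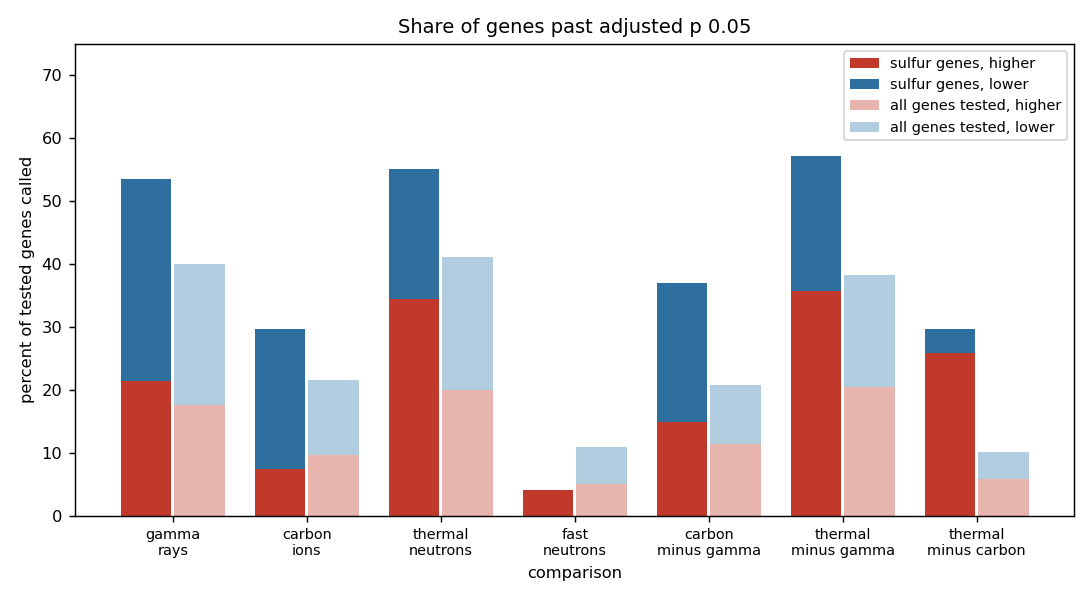
Percent of tested genes past an adjusted p of 0.05 in each comparison, for the sulfur genes (dark) and for all genes tested (light), split into higher (red) and lower (blue). The sulfur gene share was above the share of all genes in every comparison but fast neutrons, where it was 4% against 11%.

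Sulfate enters the cell through Sul1, a high-affinity sulfate permease. SUL1 was at -0.96, -0.72 and -0.13 on the thermal neutron arrays, and between -0.02 and 0.36 on the gamma arrays, without overlap. It fell after thermal neutrons (-0.61 ± 0.43, SD, n = 3 as for all means below unless given, adjusted p = 0.0119) and was lower than after gamma rays by a difference of -0.83 (95% interval -1.33 to -0.34, adjusted p = 0.0135). Without thermal replicate 1 or 2 neither call held, with adjusted p from 0.0501 to 0.109. SUL1 was also lower after thermal neutrons than after carbon ions (difference -0.79, adjusted p = 0.049), a call that was lost without any one of 5 arrays, all 3 carbon arrays and thermal replicates 1 and 2 (adjusted p 0.0735 to 0.18).

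Of the 8 genes that lead from sulfate to sulfide, 4 were higher and 1 lower after thermal neutrons than after gamma rays. Of all genes, 20.4% were called higher and 17.8% lower in that comparison. After gamma rays 1 rose and 4 fell, where 40% of all genes were called. After thermal neutrons 3 rose and 0 fell, where 41.1% were called, and after carbon ions 1 rose and 2 fell, where 21.6% were. The 3 of 8 after thermal neutrons are thus no more than the share of all genes. After fast neutrons 0 of 7 tested were called by limma, where 11% of all genes were, and 0 had an unadjusted p under 0.05. Sulfate activation takes 2 enzymes, ATP sulfurylase (MET3) and adenylylsulfate kinase (MET14). MET3 was at -0.92, -0.64 and -0.89 after gamma rays, at -0.17, -0.54 and -0.42 after carbon ions, and at 0.29, 0.15 and 0.25 after thermal neutrons. The 3 sets did not overlap, with gamma rays lowest and thermal neutrons highest. MET3 fell 1.76-fold after gamma rays (adjusted p = 0.000419), and the difference between thermal neutrons and gamma rays was 1.05 (interval 0.68 to 1.41, adjusted p = 0.000711). It also fell after carbon ions (-0.38 ± 0.19, adjusted p = 0.0426) and was higher after thermal neutrons than after carbon ions (0.61, adjusted p = 0.0417), but neither of these calls held without any one array of the groups compared (adjusted p 0.0623 to 0.231).

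MET14 was at -1.30, -0.63 and -0.92 after gamma rays and fell there (-0.95 ± 0.34, adjusted p = 0.0253). That call was lost without gamma replicate 1 (adjusted p = 0.135) or 3 (0.0914). On the thermal neutron arrays MET14 was at 0.49, -1.23 and 0.83, and the low value came from the high-power scan alone, since the low-power scan of that array held none. Without thermal replicate 2 the mean was 0.66 (adjusted p = 0.0232) and the difference from gamma rays 1.61 (adjusted p = 0.00109), and with it the difference of 0.98 was not called (adjusted p = 0.086).

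MET16 encodes the reductase that turns phosphoadenylylsulfate into sulfite with electrons from thioredoxin. It was at 0.53, 0.70 and 1.18 after thermal neutrons, above all 3 gamma values of 0.22, -0.13 and -0.31. MET16 rose 1.74-fold after thermal neutrons (0.80 ± 0.34, adjusted p = 0.00168) and was 0.87 higher than after gamma rays (interval 0.41 to 1.34, adjusted p = 0.00744). After carbon ions it was at 0.44, 0.44 and 0.17, positive on each array and not called (adjusted p = 0.111).

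Sulfite reductase has 2 subunits, Met5 and Met10, and these moved apart after gamma rays. MET10 was at 0.30, 0.52 and 1.16 on the gamma arrays and rose (0.66 ± 0.45, adjusted p = 0.00712), a call lost without gamma replicate 3 (0.41, adjusted p = 0.0698). MET5 was at -0.39, -0.40 and -0.29 on the same arrays and fell (-0.36 ± 0.06, adjusted p = 0.0394), a call lost without any one gamma array (adjusted p 0.0909 to 0.141). No gamma value of MET5 reached one of MET10.

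Against gamma rays, the difference for thermal neutrons was 0.62 for MET5 (adjusted p = 0.0159) and -0.64 for MET10 (adjusted p = 0.0426), so the 2 subunits also differed in opposite directions there. The MET5 difference was lost without thermal replicate 1 or 2 (adjusted p = 0.051 and 0.0739). The MET10 difference was lost without gamma replicate 2 or 3 or any one thermal array (adjusted p 0.0615 to 0.155). For carbon ions minus gamma rays MET10 was at -0.77 (adjusted p = 0.0342), a call lost without any one of 4 arrays, gamma replicates 2 and 3 and carbon replicates 1 and 2 (adjusted p 0.0559 to 0.111).

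Siroheme, the cofactor of sulfite reductase, is made with Met1 and Met8. MET8 was at 0.46, 0.52 and 0.73 after thermal neutrons and at 0.78, 0.80 and 0.19 after carbon ions, positive on all 6 arrays. It rose after both (0.57 ± 0.14, adjusted p = 0.0184, and 0.59 ± 0.35, adjusted p = 0.0288). Both calls were fragile: the first was lost without any one thermal array (adjusted p 0.0533 to 0.108) and the second without carbon replicate 1 or 2 (0.152 and 0.164). Only 2 fast neutron arrays held a value for MET8, -0.74 and -0.70, so it was not tested there.

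MET1 was at 0.54, 0.06 and 0.46 after thermal neutrons, just past the threshold (0.35 ± 0.26, adjusted p = 0.0495). It was 0.52 higher than after gamma rays (adjusted p = 0.0439). The first call was lost without thermal replicate 1 or 3 (adjusted p = 0.253 and 0.193), and the second without these or without gamma replicate 1 or 2 (0.098 to 0.147). After fast neutrons MET1 was at 0.15, -0.56 and 1.82, with both scans of replicate 3 above 1.75, and was not called (adjusted p = 0.435). Without fast replicate 2 MET1 passed the threshold at a mean of 0.99, but its 2 remaining arrays, at 0.15 and 1.82, lay far apart, and that fit takes its error from the spread pooled over genes.

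MET22 encodes the phosphatase that clears the byproduct of sulfate reduction, adenosine bisphosphate. It was negative on all 12 arrays and lay at -0.49, -0.54 and -0.38 after carbon ions. It fell after carbon ions (-0.47 ± 0.08, adjusted p = 0.0143) and after gamma rays (-0.33, adjusted p = 0.0348), where its 3 values lay between -0.34 and -0.33. The first call was lost without carbon replicate 1 or 2 (adjusted p = 0.0812 and 0.0888) and the second without any one gamma array (0.0861 to 0.113).

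All 4 genes of homocysteine and methionine synthesis were called after gamma rays, 2 higher and 2 lower, and 3 after thermal neutrons, 2 higher and 1 lower, where 40% and 41.1% of all genes were called. After carbon ions 0 of the 4 were called by limma, where 21.6% of all genes were, and 0 had an unadjusted p under 0.05. Homocysteine is made from sulfide by Met17 (also called Met25), which uses the O-acetylhomoserine that Met2 makes from homoserine. MET17 (YLR303W) was at 3.07, 2.80 and 2.26 after thermal neutrons. On the gamma arrays it was at -0.79, -0.92 and -0.91. After carbon ions it was at -0.12, -0.06 and 0.40, and after fast neutrons at 0.51, 0.71 and 0.67. The lowest thermal neutron value was thus far above every other value of the gene, and all gamma values were below every other value.

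MET17 rose 6.54-fold after thermal neutrons (2.71 ± 0.41, adjusted p = 1.57e-06), the 8th highest of 5301 genes. It fell 1.83-fold after gamma rays (-0.87 ± 0.07, adjusted p = 0.0015). The difference between these was 3.58 (interval 3.09 to 4.07, adjusted p = 2.12e-06) and ranked 6th of 4843 genes. Carbon ions lay between, 0.95 above gamma rays (adjusted p = 0.0142, or 0.0543 with the arrays scaled to the same spread) and 2.64 below thermal neutrons (adjusted p = 0.000103).

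After fast neutrons MET17 rose 1.55-fold (0.63 ± 0.10, adjusted p = 0.0388). Both scans of all 3 fast neutron arrays were positive, between 0.43 and 0.75. The call was lost without fast replicate 1 (adjusted p = 0.158) or 3 (0.144), when only 2 arrays were left in the fit, and with high-power scans only (0.142).

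MET2 (YNL277W), the homoserine O-acetyltransferase whose product Met17 uses, went the other way. It was at 0.61, 0.63 and 0.65 after gamma rays, at -0.05, 0.04 and 0.04 after carbon ions, and at -0.233, -0.697 and -1.002 after thermal neutrons. The 3 sets did not overlap, with gamma rays highest. MET2 rose 1.55-fold after gamma rays (adjusted p = 0.00424) and fell 1.56-fold after thermal neutrons (adjusted p = 0.00374), with a difference of -1.27 between them (interval -1.70 to -0.85, adjusted p = 0.000557). The difference between carbon ions and gamma rays was -0.62 (adjusted p = 0.0444), a call lost without any one of the 6 arrays (adjusted p 0.0759 to 0.123). On the fast neutron arrays MET2 was at -0.160, -1.9996 and -0.126, where the value of replicate 2 came from its high-power scan alone, and it was not called (adjusted p = 0.178).

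Methionine is formed from homocysteine by Met6, the cobalamin-independent methionine synthase, with a methyl group that the reductase Met13 provides on folate. MET6 (YER091C) was at 1.62, 1.24 and 0.94 after thermal neutrons, at -0.93, -0.89 and -1.45 after gamma rays, and at 0.03, 0.63 and -0.42 after carbon ions. Thermal neutron values were the highest, and gamma values the lowest, without overlap. MET6 rose 2.41-fold after thermal neutrons (adjusted p = 0.000558) and fell 2.13-fold after gamma rays (adjusted p = 0.00151). The difference was 2.36 (interval 1.75 to 2.97, adjusted p = 0.000109), the 23rd highest of 4843 genes.

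Against carbon ions, MET6 was 1.19 higher after thermal neutrons (adjusted p = 0.0233) and 1.17 lower after gamma rays (adjusted p = 0.0147). The first call was lost without carbon replicate 1 or thermal replicate 1 or 2 (adjusted p 0.0717 to 0.097) and the second without gamma replicate 3 (0.0595). After fast neutrons MET6 was at -0.80, -0.29 and -0.55, negative on all 3 arrays, and not called (-0.55 ± 0.25, interval -0.93 to -0.17, adjusted p = 0.0664). The scans of fast neutron replicate 2 gave -0.01 at high power and -0.58 at low power. Without that array MET6 was at -0.68 (adjusted p = 0.000438, from 2 arrays and the spread pooled over genes). MET17 and MET6, adjacent steps of the pathway, thus had the same sign after gamma rays and after thermal neutrons, and opposite signs on every fast neutron array.

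MET13 (YGL125W), which makes the methyl-folate that Met6 uses, was at 0.55, 0.68 and 1.29 after gamma rays and at -0.06, 0.05 and 0.13 after thermal neutrons. No thermal value reached a gamma value. MET13 rose 1.79-fold after gamma rays (adjusted p = 0.00122), and the difference for thermal neutrons minus gamma rays was -0.80 (interval -1.25 to -0.35, adjusted p = 0.0104). The direction was opposite to that of MET6 on the same arrays. After carbon ions MET13 was positive on all 3 arrays and not called (0.27 ± 0.16, interval -0.05 to 0.59, adjusted p = 0.191).

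**Figure D3:**
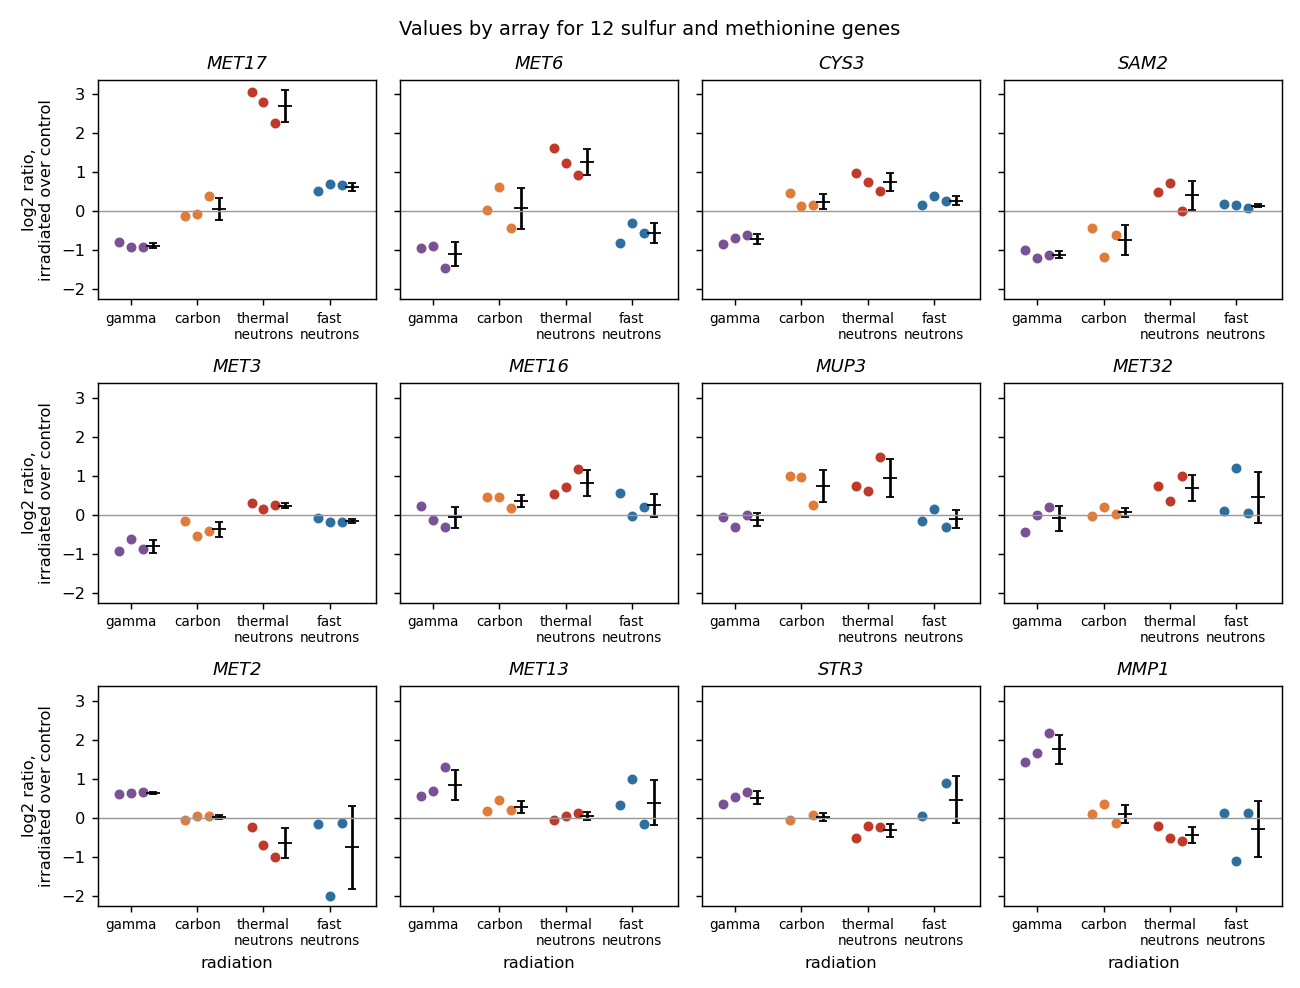
Log2 ratio of irradiated over control on each of the 3 arrays per radiation (dots) for 12 of the sulfur genes, with the mean and SD beside them (bar). By their means, 8 of these genes were lowest after gamma rays and highest after thermal neutrons among the 3 radiations on the shared array type. These were MET17, MET6, CYS3, SAM2, MET3, MET16, MUP3 and MET32. MET2, MET13, STR3 and MMP1 ran the other way.

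Transsulfuration links homocysteine and cysteine. Cys4 and Cys3 carry homocysteine to cysteine through cystathionine, and Str2 and Str3 carry cysteine back. CYS3 (YAL012W), cystathionine gamma-lyase, was at 0.99, 0.75 and 0.51 after thermal neutrons, at 0.47, 0.14 and 0.15 after carbon ions, and at -0.83, -0.68 and -0.59 after gamma rays. The 3 sets did not overlap. CYS3 rose 1.68-fold after thermal neutrons (adjusted p = 0.000932) and fell 1.63-fold after gamma rays (adjusted p = 0.00155). The difference was 1.45 for thermal neutrons minus gamma rays (interval 1.06 to 1.85, adjusted p = 0.000152) and 0.95 for carbon ions minus gamma rays (interval 0.56 to 1.35, adjusted p = 0.00516). The difference of 0.50 between thermal neutrons and carbon ions was not called (interval 0.10 to 0.89, adjusted p = 0.105). On the fast neutron arrays CYS3 was at 0.16, 0.40 and 0.27, all positive and not called (adjusted p = 0.241).

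STR3 (YGL184C), cystathionine beta-lyase, acts in the reverse direction. Its sign was opposite to that of CYS3 on every gamma and thermal neutron array. It was at 0.35, 0.54 and 0.66 after gamma rays and at -0.51, -0.21 and -0.24 after thermal neutrons, without overlap. STR3 rose 1.43-fold after gamma rays (adjusted p = 0.00738), a call lost without gamma replicate 3 (0.44, adjusted p = 0.055). It was lower after thermal neutrons than after gamma rays by a difference of -0.84 (interval -1.22 to -0.45, adjusted p = 0.00373). Against control, the thermal neutron value of -0.32 ± 0.17 was not called (adjusted p = 0.0569).

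CYS4, cystathionine beta-synthase, was negative on all 12 arrays and reached -0.26, -0.38 and -0.61 after thermal neutrons, its lowest mean. It fell there (-0.42 ± 0.18, adjusted p = 0.0147), a call lost without thermal replicate 2 (adjusted p = 0.0569) or 3 (0.0938). CYS3 and CYS4, consecutive enzymes, therefore had opposite signs on every thermal neutron array. STR2, cystathionine gamma-synthase, was measured on all 3 arrays only for thermal neutrons (-0.03 ± 0.45, adjusted p = 0.919) and fast neutrons (-0.32 ± 0.26, adjusted p = 0.222).

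S-adenosylmethionine is made from methionine by Sam1 and Sam2. The genes are close paralogs, and as the probe sequences were not used here, how far their probes read both transcripts was not tested. SAM2 (YDR502C) was at -0.9985, -1.192 and -1.127 after gamma rays and at -0.41, -1.17 and -0.61 after carbon ions. On the thermal neutron arrays it was at 0.50, 0.73 and -0.0001, above all 6 of those values. SAM2 fell 2.15-fold after gamma rays (adjusted p = 0.000536) and 1.66-fold after carbon ions (adjusted p = 0.0117), the latter call lost without carbon replicate 2 (-0.51, adjusted p = 0.0996).

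The difference in SAM2 between thermal neutrons and gamma rays was 1.52 (interval 1.00 to 2.03, adjusted p = 0.000608). Against carbon ions thermal neutrons were 1.14 higher (interval 0.62 to 1.66, adjusted p = 0.0136), a call lost without thermal replicate 1 or 2 (adjusted p = 0.0583 and 0.0642). SAM1 lay between -0.31 and 0.15 on all 9 of these arrays and was called in no comparison. After gamma rays the interval of SAM1 was -0.28 to 0.25 and that of SAM2 was -1.47 to -0.74, without overlap. After thermal neutrons the intervals overlapped, at -0.35 to 0.18 for SAM1 and 0.05 to 0.78 for SAM2. Against control SAM2 was not called after thermal neutrons (0.41 ± 0.37, adjusted p = 0.0685). The difference between the 2 genes was not tested. After fast neutrons SAM1 was at 0.45, 0.49 and 0.16 (adjusted p = 0.152).

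Of the 4 genes of S-adenosylmethionine and its recycling, 1 rose and 2 fell after gamma rays, 0 rose and 2 fell after carbon ions, and 1 rose and 1 fell after thermal neutrons, where 40%, 21.6% and 41.1% of all genes were called. Sam4 and Mht1 recycle homocysteine to methionine with a methyl group from S-adenosylmethionine or S-methylmethionine. SAM4 was negative on all 12 arrays. It fell after gamma rays (-0.63 ± 0.25, adjusted p = 0.00231), carbon ions (-0.58 ± 0.09, adjusted p = 0.00825) and thermal neutrons (-0.36 ± 0.10, adjusted p = 0.0337). The carbon call was lost without carbon replicate 1 or 2 (adjusted p = 0.0547 and 0.0588), and the thermal call without any one thermal array (0.0839 to 0.165). The values of these 3 radiations overlapped, with a difference of 0.26 between thermal neutrons and gamma rays (interval -0.12 to 0.64, adjusted p = 0.246).

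MHT1 was at 1.15, 1.03 and 0.78 after thermal neutrons, at 1.04, 0.80 and 0.06 after gamma rays and at 0.57, -0.54 and -0.30 after carbon ions. The thermal values were above all carbon values and overlapped the gamma values. MHT1 rose 1.98-fold after thermal neutrons (adjusted p = 0.00456) and 1.55-fold after gamma rays (adjusted p = 0.0382), and was 1.08 higher after thermal neutrons than after carbon ions (adjusted p = 0.0483). The gamma call was lost without gamma replicate 1 or 2 (adjusted p = 0.224 and 0.162). The difference from carbon ions was lost without carbon replicate 2 or 3 or any one thermal array (adjusted p 0.0742 to 0.152).

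Organic sulfur enters through Mup1 and Mup3, the high- and low-affinity methionine permeases, Mmp1, the S-methylmethionine permease, and Sam3, the S-adenosylmethionine permease. Of these 4 permeases, 1 rose after gamma rays, 1 rose and 1 fell after carbon ions, and 1 rose and 2 fell after thermal neutrons, beside the same shares of all genes. Mmp1 and Sam3 are close relatives, and whether their probes read both was not tested. MMP1 (YLL061W) was at 1.43, 1.65 and 2.17 after gamma rays, at 0.09, 0.34 and -0.14 after carbon ions, and at -0.22, -0.53 and -0.60 after thermal neutrons. The 3 sets did not overlap. MMP1 rose 3.37-fold after gamma rays (1.75 ± 0.38, adjusted p = 2.08e-05), the largest change of any sulfur gene there and 58th highest of 4891 genes.

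MMP1 was lower than after gamma rays by -2.20 after thermal neutrons (interval -2.68 to -1.72, adjusted p = 4.1e-05) and by -1.66 after carbon ions (interval -2.14 to -1.17, adjusted p = 0.00104). Against control it fell after thermal neutrons (-0.45 ± 0.20, adjusted p = 0.0379), a call lost without any one thermal array (adjusted p 0.0524 to 0.178). MMP1 and MHT1, the transporter and the enzyme for S-methylmethionine, are neighbours in the genome in the RefSeq annotation of assembly R64. Both rose after gamma rays, whereas after thermal neutrons MHT1 rose and MMP1 fell.

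MUP3 was at 0.72, 0.60 and 1.49 after thermal neutrons and at 0.98, 0.97 and 0.25 after carbon ions, all above its gamma values of -0.08, -0.32 and -0.01. It rose 1.91-fold after thermal neutrons (adjusted p = 0.0026) and 1.66-fold after carbon ions (adjusted p = 0.0197). Its differences from gamma rays were 1.07 (interval 0.48 to 1.65, adjusted p = 0.00863) and 0.86 (adjusted p = 0.0413). The carbon call was lost without carbon replicate 1 or 2 (adjusted p = 0.12 and 0.122), and the carbon minus gamma difference without any one of 5 arrays, the exception being carbon replicate 3 (0.0723 to 0.133).

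MUP1 was negative on all 12 arrays and called only after thermal neutrons (-0.40 ± 0.35, adjusted p = 0.0435), a call lost without thermal replicate 2 (adjusted p = 0.0766) or 3 (0.319). MUP1 without fast replicate 2 was at -0.63 (adjusted p = 0.00106, again from 2 arrays and the pooled spread), against -0.50 ± 0.22 on all 3 fast neutron arrays (adjusted p = 0.0778). SAM3 was at -0.61, -0.41 and -0.33 after carbon ions and at 0.14, 0.37 and 0.34 after gamma rays, without overlap. It fell after carbon ions (-0.45 ± 0.15, adjusted p = 0.0175), a call lost without carbon replicate 1 or 2 (0.125 and 0.0737). The difference for carbon ions minus gamma rays was -0.74 (interval -1.09 to -0.39, adjusted p = 0.00984).

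Among the 4 regulators, 0 were called by limma after gamma rays, where 40% of all genes were called. Of these regulators, 0 had an unadjusted p under 0.05 there. After carbon ions 0 rose and 1 fell, and after thermal neutrons 2 rose and 0 fell. Of all genes, 21.6% and 41.1% were called after these radiations. After fast neutrons 0 of 3 tested were called by limma, where 11% of all genes were, and 0 had an unadjusted p under 0.05. MET4, the activator, was at -0.98, -0.98 and -0.28 after carbon ions and at 0.32, 0.03 and 0.20 after thermal neutrons, without overlap. It fell 1.68-fold after carbon ions (adjusted p = 0.0108), a call lost without carbon replicate 1 or 2 (0.0832 and 0.0801). MET4 was lower after carbon ions than after gamma rays (difference -0.79, adjusted p = 0.0358), a call lost without any one of gamma replicates 1 and 2 and carbon replicates 1 and 2 (0.0973 to 0.123). Thermal neutrons exceeded carbon ions by 0.93 for MET4 (adjusted p = 0.0308), a call lost without carbon replicate 1 or 2 or any one thermal array (0.0702 to 0.112).

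MET32, a zinc-finger protein that brings Met4 to DNA, was at 0.72, 0.34 and 0.99 after thermal neutrons, above its gamma values of -0.44, -0.02 and 0.18. It rose 1.604-fold (adjusted p = 0.0046) and was 0.77 higher than after gamma rays (interval 0.31 to 1.24, adjusted p = 0.0144). That difference was lost without gamma replicate 1 or thermal replicate 3 (adjusted p = 0.0503 and 0.0539).

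MET28, a leucine zipper cofactor of Met4, was at 1.55, 0.80 and 1.27 after thermal neutrons and rose 2.31-fold (adjusted p = 0.0268). Its carbon values of 0.37, -2.55 and -0.94 spread widely, and the latter pair came from the high-power scan alone, as did the thermal values of replicates 1 and 2. The carbon mean was not called (-1.04 ± 1.46, adjusted p = 0.0712), and without carbon replicate 1 it was -1.75 (adjusted p = 0.00892). MET28 was 2.25 higher after thermal neutrons than after carbon ions (interval 1.06 to 3.43, adjusted p = 0.0255). Both calls were lost without any one thermal array (adjusted p 0.0521 to 0.137), although every thermal value was above every carbon value. MET30, the F-box protein that restrains Met4, was called only for carbon ions minus gamma rays (-0.53, adjusted p = 0.0444), a call lost without any one of 5 arrays, the exception being gamma replicate 3 (0.076 to 0.123).

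**Figure D4:**
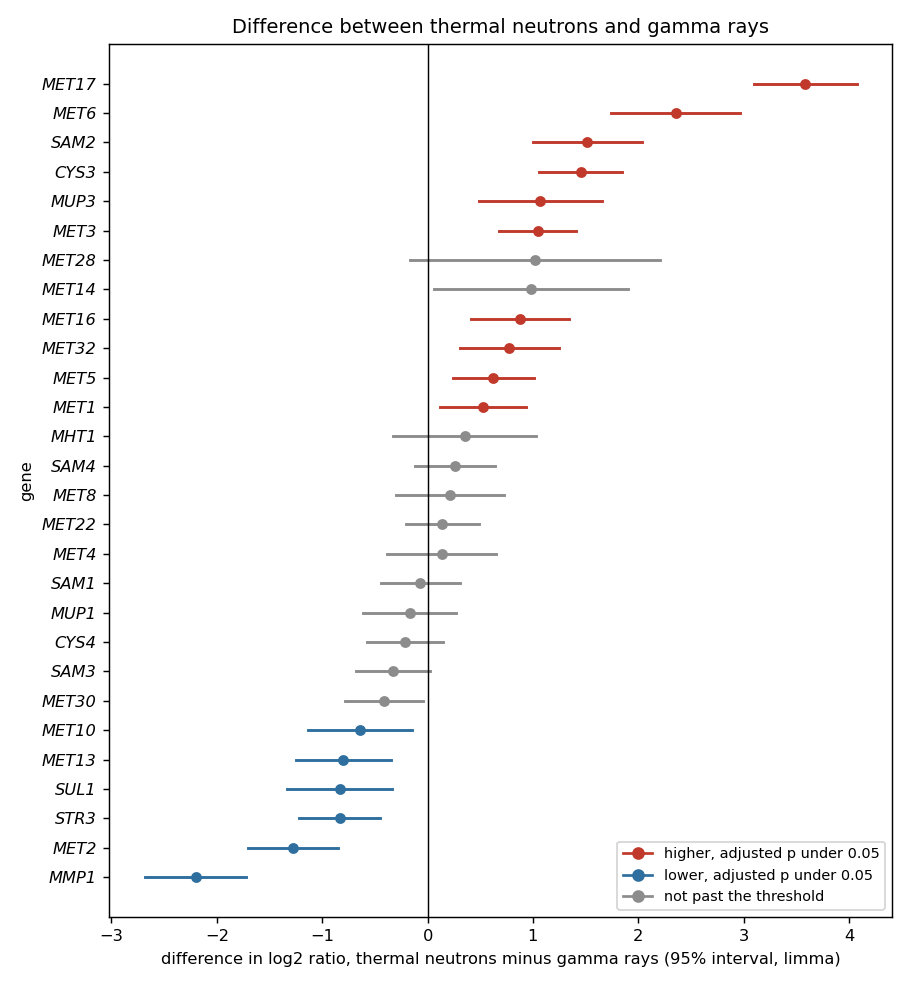
Difference in log2 ratio, thermal neutrons minus gamma rays, with its 95% interval from limma for the 28 sulfur genes tested. Red and blue mark the 10 genes called higher and the 6 called lower. The differences ran from 3.58 for MET17 to -2.20 for MMP1.

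Among the 24 sulfur genes measured on all 12 arrays, 4 had the same sign throughout (16.67%, against 11.24% of the 4420 genes so measured). These were CYS4, MET22, MUP1 and SAM4, and all were negative. For comparison, 7.602% of all genes were negative on all 12 arrays. With no dye swap, a part of such a constant sign that comes from the dyes cannot be told apart from a common response.

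Genes around the pathway were read from 7 further lists with 39 genes. Of those tested, 14 of 38 were called after gamma rays (36.8%), 13 of 37 after carbon ions (35.1%), 22 of 39 after thermal neutrons (56.4%) and 6 of 35 after fast neutrons (17.1%). Beside the shares of all genes given above, the gamma share was lower and the rest were higher.

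Of 5 electron donors and methionine sulfoxide reductases, 4 rose after thermal neutrons, 3 after carbon ions and 2 after fast neutrons, where 19.9%, 9.7% and 5.06% of all genes were called higher. After gamma rays 0 rose and 1 fell, where 17.6% of all genes were called higher and 22.4% lower. TRX2, a thioredoxin and so an electron donor for Met16, was at 1.501, 1.137 and 1.592 after thermal neutrons and rose there (1.41 ± 0.24, adjusted p = 4.8e-05). MXR1 and MXR2, which repair oxidised methionine in proteins, rose to 1.18 ± 0.11 and 1.29 ± 0.19 after thermal neutrons (adjusted p = 4.51e-05 and 6.97e-05). All 5 genes were higher after thermal neutrons than after gamma rays, where 20.4% of all genes were called higher. The difference was 1.66 for MXR2 (adjusted p = 0.000167) and 1.20 for TRX2 (adjusted p = 0.00129). TRX2 and MXR2 also rose after fast neutrons (1.20 ± 0.24, adjusted p = 0.0117, and 1.01 ± 0.29, adjusted p = 0.0193), calls lost without fast replicate 1 (0.0509 and 0.0702), and for MXR2 also with high-power scans only (0.0731).

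Of the genes for other sulfur sources and sulfite export, 3 of 7 rose and 0 fell after gamma rays, where 17.6% of all genes were called higher. After thermal neutrons 0 of 8 rose and 6 fell, where 21.2% of all genes were called lower. After carbon ions 0 of 7 rose and 2 fell, and after fast neutrons 0 of 5 rose and 1 fell, where 11.9% and 5.92% were called lower. SSU1, the sulfite efflux pump, was at 1.44, 1.25 and 0.98 after gamma rays and at -1.19, -1.16 and -0.82 after thermal neutrons. It rose after gamma rays (adjusted p = 8.53e-05), fell after thermal neutrons (adjusted p = 0.000165), and differed between them by -2.28 (adjusted p = 1.51e-05). YCT1, a cysteine transporter, was at 0.82 ± 0.23 after gamma rays (adjusted p = 0.00544) and at -0.69 ± 0.04 after thermal neutrons (adjusted p = 0.0135), the latter call lost without any one thermal array (0.055 to 0.0636). IRC7, which breaks down cysteine, fell after carbon ions, thermal neutrons and fast neutrons (-0.87 ± 0.11, -1.09 ± 0.10 and -1.08 ± 0.21, adjusted p = 0.00102, 6.35e-05 and 0.0148), the fast neutron call lost without fast replicate 1 (0.0556) and with high-power scans only (0.056).

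SAH1, which clears the S-adenosylhomocysteine left by methyl transfer, fell after all 4 radiations, from -0.56 ± 0.07 after carbon ions (adjusted p = 0.0146) to -0.97 ± 0.35 after thermal neutrons (adjusted p = 0.000243). The carbon and fast neutron calls were each lost without 1 of 2 arrays, carbon replicates 1 and 2 (adjusted p = 0.0602 and 0.0839) and fast replicates 1 and 3 (0.211 and 0.0899). The fast neutron call was also lost with high-power scans only (0.101). HOM3, aspartate kinase, which starts the route to homoserine, was negative on all 12 arrays. It fell after thermal neutrons (-0.98 ± 0.31, adjusted p = 0.000701), carbon ions (-0.70 ± 0.32, adjusted p = 0.0117) and fast neutrons (-0.69 ± 0.15, adjusted p = 0.033). The carbon call was lost without carbon replicate 1 or 2 (0.0576 and 0.0964). The fast neutron call was lost without fast replicate 1 or 3 (0.138 and 0.099) and with high-power scans only (0.0928). After gamma rays HOM3 was not called (-0.42 ± 0.25, adjusted p = 0.0525). In the homoserine list, 1 of 3 genes fell after gamma rays, 2 after carbon ions, 1 after thermal neutrons and 1 after fast neutrons. Of all genes, 22.4%, 11.9%, 21.2% and 5.92% were called lower, in that order of radiations. In the methyl cycle list 1 of 2, SAH1, fell after each radiation. No gene of either list rose. HOM2 fell after gamma rays and carbon ions, calls lost without any one array of that radiation (adjusted p 0.0727 to 0.156).

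In the folate and one-carbon list, 4 of 7 genes fell and 1 rose after gamma rays, where 22.4% of all genes were called lower and 17.6% higher. After carbon ions and after thermal neutrons 3 of 7 fell and 0 rose, where 11.9% and 21.2% were called lower, and after fast neutrons 1 of 7 fell, where 5.92% were. FOL3, dihydrofolate synthetase, fell after gamma rays (-0.78 ± 0.18, adjusted p = 0.000515), and SHM2, cytosolic serine hydroxymethyltransferase, fell there too (-0.96 ± 0.12, adjusted p = 0.00289). FOL3 also fell after carbon ions (-0.50 ± 0.11, adjusted p = 0.0136), a call lost without carbon replicate 1 or 2 (0.094 and 0.0515). MIS1, the mitochondrial C1-tetrahydrofolate synthase, was at -0.81 ± 0.39 after thermal neutrons (adjusted p = 0.00111) and at 0.24 ± 0.06 after gamma rays, where it was not called (adjusted p = 0.194). It also fell after carbon ions (-0.66 ± 0.12, adjusted p = 0.00889), a call lost without carbon replicate 1 (0.0564). After fast neutrons MIS1 was at -0.90 ± 0.37 (adjusted p = 0.0274). That call was lost without fast replicate 1 or 3 (0.132 and 0.103) and with high-power scans only (0.101).

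In the methionine salvage and polyamine list, ADI1, a dioxygenase of methionine salvage, fell after gamma rays (-0.66 ± 0.23, adjusted p = 0.00879) and rose after thermal neutrons (0.85 ± 0.33, adjusted p = 0.00212), with a difference of 1.502 (adjusted p = 0.000598). It also rose after carbon ions (0.68 ± 0.36, adjusted p = 0.0146), a call lost without carbon replicate 1 or 2 (0.116 and 0.0707). For carbon ions minus gamma rays ADI1 was at 1.34 (adjusted p = 0.00369). The gamma call was lost without gamma replicate 2 or 3 (adjusted p = 0.0568 and 0.0618). Over that list 1 of 8 rose and 1 fell after gamma rays, and 2 rose and 3 fell after thermal neutrons, where 40% and 41.1% of all genes were called. After carbon ions 1 rose and 1 fell, where 21.6% of all genes were called. After fast neutrons 0 of 8 were called by limma, where 11% of all genes were, and 0 had an unadjusted p under 0.05.

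Of 6 further regulators of the sulfur genes, 1 was called after gamma rays (16.7%, against 40% of all genes) and 2 after thermal neutrons (33.3%, against 41.1%). Both shares were below those of all genes. MET31, the close relative of MET32, was at -0.56, -0.72 and -1.39 after gamma rays and fell (-0.89 ± 0.44, adjusted p = 0.0013), and no other was called there. After thermal neutrons CDC53, the cullin that works with Met30, rose to 1.08 ± 0.24 (adjusted p = 0.000117) and SKP1, its adaptor, to 0.52 ± 0.03 (adjusted p = 0.00839). These were the only calls of that list after thermal neutrons. After carbon ions and fast neutrons 0 of 5 tested were called by limma, where 21.6% and 11% of all genes were. Of these regulators, 0 and 1 had an unadjusted p under 0.05.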

How the data were processed

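The authors deposited log2 ratios per spot, normalised by LOWESS from spots with flag 0, per the labels' protocols, in 1 table for gamma rays, carbon ions and thermal neutrons and in another for fast neutrons. The log base is not given in the sources used here, and was taken as 2 because 4 columns end at log2 of a ratio of 0.01. Channel intensities were not used here. The 9 arrays other than gamma rays were scanned at high and low laser power, and each probe took the mean of both scans (r from 0.693 to 0.962 over probes). Of 6912 probes per table, 5446 and 5513 carried 1 gene symbol, and all others were left out. The number of arrays limits the precision.

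limma 3.58.1 in R 4.3.3 (lmFit and eBayes, two-sided) was fitted to all genes of a table, with 1 mean per radiation and 9 arrays sharing the spread in the first table and 3 arrays in the second. Genes with a value on all arrays of the groups compared were tested, p-values were adjusted by Benjamini-Hochberg over these, and folds are 2 to the power of the log2 values. The fit was tested on simulated data. The sulfur genes and the lists were chosen with earlier results of these data known. Any of the 30 sulfur genes may be named, and of each further list up to 3 genes with the smallest p in any comparison. Alternatives were array centring, scan power, array scaling, array weights, gene and probe filters, a replicate block, fits on the compared arrays alone, and leaving out each array. Replicate numbers do not pair the arrays (r of deviations from -0.263 to 0.131 in 9 pairs). A description of promoter motifs that had been planned was not made, because no promoter sequences were used here.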

Additional observations from a re-analysis of the deposited data

Results flagged for a closer look

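The sulfur genes listed here differed between radiations by limma's test of the difference itself, on the array type used for all radiations but fast neutrons. All values are differences in log2 ratio, and 57.1%, 37% and 29.6% of the sulfur genes tested were called in the 3 comparisons, against 38.2%, 20.8% and 10.2% of all genes.

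For thermal neutrons minus gamma rays, the genes of homocysteine and methionine synthesis were at 3.58 (MET17), 2.36 (MET6), -1.27 (MET2) and -0.80 (MET13). In transsulfuration CYS3 was at 1.45 and STR3 at -0.84. SAM2 was at 1.52. Among the permeases MMP1 was at -2.20, MUP3 at 1.07 and SUL1 at -0.83. From sulfate to sulfide, MET3 was at 1.05, MET16 at 0.87, MET5 at 0.62, MET1 at 0.52 and MET10 at -0.64. The regulator MET32 was at 0.77. Of these 16, 11 were called under every alternative tried, the exceptions being SUL1, MET5, MET1, MET10 and MET32.

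For carbon ions minus gamma rays, MET6 was at 1.17, CYS3 at 0.95, MET17 at 0.95 and MUP3 at 0.86. MMP1 was at -1.66, SAM3 at -0.74, MET10 at -0.77 and MET2 at -0.62. The regulators MET4 and MET30 were at -0.79 and -0.53. Only CYS3, MMP1 and SAM3 were called under every alternative tried.

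For thermal neutrons minus carbon ions, MET17 was at 2.64, MET28 at 2.25, MET6 at 1.19, SAM2 at 1.14, MHT1 at 1.08, MET4 at 0.93, MET3 at 0.61 and SUL1 at -0.79. MET17 alone was called under every alternative tried.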

How the results depend on the processing

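No call of a sulfur gene turned its direction under the 22 alternatives, and 2222 of the recomputed values kept their side of the threshold, while 192 lost a call and 67 gained one. After carbon ions 8 calls became 13 with array weights and 1 with the carbon arrays alone, and 0 to 7 with 1 array left out. After thermal neutrons 16 became 10 to 11 with 1 array left out, and after gamma rays 15 became 10 to 12. After fast neutrons 1 became 0 with high-power scans (3 at an unadjusted p under 0.05), 3 with low-power scans, 3 with arrays scaled, 7 with array weights, 5 with replicate 2 from its low-power scan (chosen after seeing the data), and 0 to 8 with 1 array left out. For carbon ions minus gamma rays 10 became 5 with the replicate block, an alternative in which arrays share only a number, and 5 to 8 with 1 array left out. For thermal neutrons minus carbon ions 8 became 5 with high-power scans, 14 with array weights, 5 with only those arrays, and 1 to 5 with 1 array left out. For thermal neutrons minus gamma rays 16 became 12 to 16 with 1 array left out. Each sulfur gene call lost under another setting was also lost without at least 1 array, except MET17 for carbon ions minus gamma rays, lost with arrays scaled (0.0543). The causes were not tested.

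Over all genes, 1102 calls after carbon ions became 1672 with arrays scaled, 2160 with array weights, 404 with the carbon arrays alone, 399 without replicate 1 and 371 without replicate 2. The 2180 after thermal neutrons became 1445 without replicate 3. The 542 after fast neutrons became 38 with high-power scans, 1303 with low-power scans, 937 with arrays scaled, 1633 with array weights, 1300 with replicate 2 from its low-power scan, and 68, 1652 and 62 without replicates 1, 2 and 3. The 986 for carbon ions minus gamma rays became 1668 with array weights, 567 without gamma replicate 3 and 540 without carbon replicate 1. The 512 for thermal neutrons minus carbon ions became 1487 with array weights, 200 and 249 without carbon replicates 1 and 2, and 197 and 193 without thermal replicates 1 and 2. The 3 arrays per radiation, the missing dye swap and the neutron controls' vessel limit what the ratios can show.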

Other observations

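Of 225 pairs of scans with a value for a sulfur gene, 17 differed by more than 0.5 in log2 ratio, and 9 of these 17 were on fast neutron replicate 2. The median difference was 0.141. The widest gaps, high minus low power, were -1.28 for MET16 and -1.14 for SAM4, both on that array.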
